A study of Mus musculus with 16 samples.

Results

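The genes described are the enzymes that build cholesterol from acetyl-CoA and the proteins that control SREBP2, the transcription factor of the pathway. They were chosen by name from the pathway, as the rows of the count table whose Ensembl identifiers map to 27 symbols. Each symbol matched 1 of the 38924 rows, and all 27 passed the filter on low counts. There were 6 regulators (Srebf2, Scap, Insig1, Insig2, Mbtps1, Mbtps2), 20 enzymes and 1 sterol carrier (Stard4). The libraries were bulk RNA-seq of mouse interscapular brown fat, with 4 libraries in each of 4 groups. All mice were of the C57BL/6J strain, were kept at their temperature for 4 weeks and were sampled at 13 weeks of age. Akt2 was knocked out in brown fat (KO) or left intact in wild-type littermates (WT), and both were housed at 30 °C, thermoneutral for a mouse, or at 22 °C. The Cre recombinase of the KO is named UCP1-CreER and is driven by Ucp1, a gene of brown adipocytes, so the deletion is directed at those cells, while the RNA came from whole tissue. Tamoxifen dosing of either genotype is not given in the sources used here. No label states that each library came from its own animal. The p-values therefore rest on the spread among these libraries, which may be technical.

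Cholesterol is made from acetyl-CoA through mevalonate, the isoprenoid diphosphates, squalene and lanosterol. SREBP2 is made as a precursor in the membrane of the endoplasmic reticulum, where it is bound to SCAP. When sterols are plentiful, INSIG1 and INSIG2 hold the complex there. When they are scarce it moves to the Golgi, the proteases encoded by Mbtps1 and Mbtps2 release the active part, and that part switches on the pathway's genes, Insig1 among them. Insulin signalling through AKT is known to promote SREBP processing. The libraries measured mRNA, which carries no reading of that processing.

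Library totals ranged from 12751528 to 23866743 counts, and the 27 genes together took 0.0978% to 0.172% of them. Akt2, the targeted gene, was at 56.2 to 89.3 CPM (counts scaled to library size with TMM factors) in the 8 KO libraries and at 192 to 261 CPM in the 8 WT libraries. Markers of brown adipocytes made up 0.613% to 0.718% of the counts in the libraries at 30 °C and 0.821% to 1.41% in those at 22 °C. Markers of skeletal muscle exceeded 0.1% in 3 libraries, which were library 2 of WT at 30 °C (0.206%), library 2 of KO at 30 °C (0.317%) and library 1 of KO at 22 °C (0.499%).

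Per kilobase of exon, Acat2, Hmgcs1 and Insig1 were the most abundant of the 27 genes in WT at 30 °C, at 39.1 ± 6.29, 37.6 ± 5.95 and 37.1 ± 8.46 CPM per kb (SD, n = 4). These 3 levels lay within their spread of each other. Idi1, at 0.367 ± 0.155 CPM per kb, and Mbtps2, at 0.814 ± 0.224, were the least abundant. In WT at 22 °C Pmvk came first at 98.7 ± 28.0 CPM per kb, within its spread of Insig1 at 90.4 ± 25.6. In KO at 22 °C Hmgcs1 came first at 69.2 ± 19.8 CPM per kb, with Acat2, Insig1 and Pmvk after it, the last at 27.1 ± 2.16.

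The promoters of the pathway are background to these comparisons, because SREBP2 acts at them together with NF-Y and Sp1. RefSeq promoter windows (GRCm38.p6, 250 bases before to 50 after each start) were matched by symbol for 23 of the 27 genes and searched on both strands. The sterol regulatory element core TCACNCCAC was found in 1 of the 23, Hmgcs1, and in 1.24% of 32817 windows genome-wide. The NF-Y motif CCAAT was found in 19 of 23 genes, and in 65.5% of their 29 windows against 37.4% of all windows. The Sp1 motif GGGCGG was found in 20 of 23 genes, in 79.3% of their windows against 35.6% of all. The E-box CACGTG was found in 5 of 23 genes, in 20.7% of their windows against 7.15% of all. A match is a description of the letters, and the windows leave out more distant sequence. The 250 bases upstream of the start are given for Hmgcs1, which holds the sterol element match, and for Nsdhl, Pmvk and Lss, which had the smallest p of the 27 genes for KO against WT at 22 °C and hold an NF-Y match. These genes were chosen after their values were seen. They lie at chr13:119690101-119690350, chrX:72918271-72918520, chr3:89454291-89454540 and chr10:76531355-76531604, all on the plus strand, and capitals mark matches to TCACNCCAC and to CCAAT in either orientation.
Hmgcs1: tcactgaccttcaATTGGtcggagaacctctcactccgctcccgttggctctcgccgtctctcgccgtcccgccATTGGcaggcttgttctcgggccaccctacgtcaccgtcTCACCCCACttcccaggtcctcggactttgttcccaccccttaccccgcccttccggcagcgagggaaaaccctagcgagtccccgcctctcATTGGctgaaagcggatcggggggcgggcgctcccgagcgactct
Nsdhl: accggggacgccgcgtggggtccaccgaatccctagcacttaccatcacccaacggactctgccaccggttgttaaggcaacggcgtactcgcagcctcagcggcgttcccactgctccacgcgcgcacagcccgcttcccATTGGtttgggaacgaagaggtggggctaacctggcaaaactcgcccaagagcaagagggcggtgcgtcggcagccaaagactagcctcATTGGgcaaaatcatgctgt
Pmvk: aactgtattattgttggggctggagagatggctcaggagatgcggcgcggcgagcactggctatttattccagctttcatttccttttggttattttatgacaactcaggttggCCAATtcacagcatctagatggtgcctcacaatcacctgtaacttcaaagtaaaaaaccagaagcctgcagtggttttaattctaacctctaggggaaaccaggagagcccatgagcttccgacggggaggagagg
Lss: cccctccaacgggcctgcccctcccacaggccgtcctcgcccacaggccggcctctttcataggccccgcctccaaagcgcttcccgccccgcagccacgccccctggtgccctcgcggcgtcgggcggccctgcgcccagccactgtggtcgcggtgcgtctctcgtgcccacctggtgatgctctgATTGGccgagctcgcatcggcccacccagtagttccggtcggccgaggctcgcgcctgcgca
The Hmgcs1 sequence holds the sterol element 137 bases before the start and 3 NF-Y matches, of which the first and second lie upstream of that element and the last lies between it and the start. Those of Nsdhl, Pmvk and Lss hold 2, 1 and 1 NF-Y matches and no sterol element match.

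In WT brown fat the pathway was higher at 22 °C than at 30 °C. The summed level of the 27 genes was 907 to 1065 CPM in WT at 30 °C and 1558 to 1907 CPM in WT at 22 °C. In KO it was 944 to 1001 CPM at 30 °C and 1078 to 1212 CPM at 22 °C, so every KO library at 22 °C lay below every WT library at 22 °C. Hmgcs1 carried most of the KO difference between temperatures. Without Hmgcs1 the sums were 749 to 878 CPM in WT and 756 to 790 CPM in KO at 30 °C, and 1345 to 1600 CPM in WT and 805 to 885 CPM in KO at 22 °C.

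Each gene was tested with edgeR's quasi-likelihood test, adjusted by the Benjamini-Hochberg method over the 14103 genes tested, and called changed at an adjusted p under 0.05. From 30 °C to 22 °C in WT, 20 of the 27 genes rose, 1 fell (Lbr) and 6 did not pass. Of all genes tested 20.5% rose and 17.8% fell. The median log2 fold change of the 27 genes was 0.63, against -0.03 over all genes. In 20 of the 27 every WT library at 22 °C was above every WT library at 30 °C, a pattern shown by 18.4% of all genes. Without library 3 of WT at 22 °C 2 genes fell, the added one being Stard4. Of the 6 brown adipocyte markers 5 also rose in WT, with a median of 0.77. In KO 3 rose, with a median of 0.38, where 13.8% of all genes rose. Their summed share of counts was 0.638% ± 0.0246 in WT and 0.670% ± 0.0439 in KO at 30 °C, and 1.11% ± 0.284 in WT and 1.23% ± 0.226 in KO at 22 °C (SD, n = 4). Their part in the rise of the 27 genes was not tested.

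From 30 °C to 22 °C in KO, 6 genes rose, 3 fell and 18 did not pass, with 13.8% of all genes higher and 13% lower. The median was 0.14, against 0.02 over all genes. The risers were Scap, Hmgcs1, Pmvk, Idi1, Lss and Nsdhl, and the genes that fell were Fdft1, Lbr and Stard4. Without the 3 libraries with over 0.1% of counts on muscle markers, 3 genes rose and the median was 0.013, and 1458 of 14104 genes rose. In a fit on KO libraries alone 10 rose, where 2220 of 13406 genes rose. With limma-voom quality weights 11 rose, where 3079 of 14103 genes rose, against 1943 in the main fit. Upper-quartile factors shifted the split over all genes to 2196 higher and 3382 lower in WT, against 2897 and 2509, and to 1179 higher and 2540 lower in KO, against 1943 and 1829. Of the 27 genes 17 rose and 2 fell in WT, and 4 rose and 3 fell in KO, with those factors. The plot of the response to 22 °C sets both genotypes side by side.

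**Figure D1:**
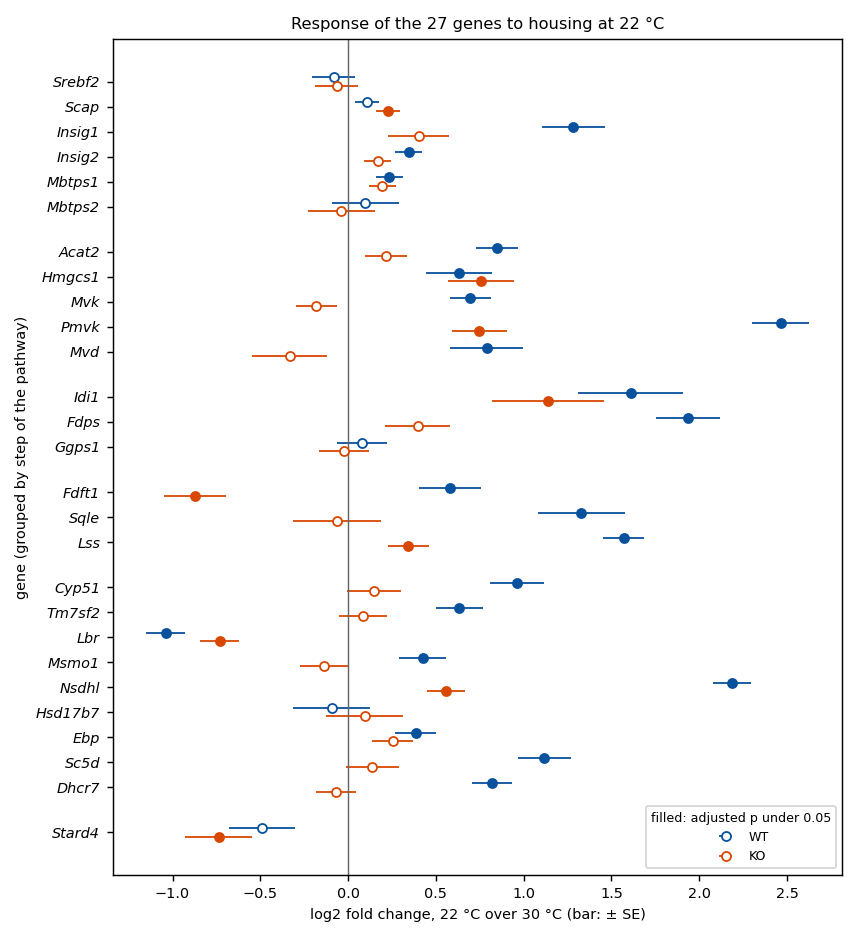
Log2 fold change from 30 °C to 22 °C (horizontal axis, bars ± SE) for each of the 27 genes (vertical axis, grouped by pathway step) in WT (blue) and KO (orange), with filled points for genes that passed the test. In WT 20 genes lie to the right of 0 as filled points, and Pmvk and Nsdhl reach 2.46 and 2.19. In KO only 6 are filled on that side.

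At 22 °C, KO against WT, 16 of the 27 genes were lower, 1 was higher (Lbr) and 10 did not pass. Among all genes 10.1% were lower and 7.52% higher. The median log2 fold change of the 27 genes was -0.63, against 0.02 over all genes. In those 16 genes every KO library lay below every WT library, a pattern shown by 9.78% of all genes. In a fit on the 22 °C libraries alone 11 genes were lower and none was higher, where 441 of 13149 genes were lower and 193 higher. The calls lost there were those of Acat2 (adjusted p = 0.0770), Mvd (0.0671), Cyp51 (0.0553), Tm7sf2 (0.0633), Msmo1 (0.0886) and Lbr (0.134). At 30 °C none of the 27 genes passed the edgeR test for KO against WT, where 0.0284% of all genes were higher and 0.0142% lower, and the median was -0.04. At an unadjusted p under 0.05 there were 4 of the 27, and 608 of the 14103 genes tested. The 4 were Insig1 (log2 fold change -0.47), Idi1 (-0.77), Sc5d (-0.34) and Dhcr7 (-0.30), all with an adjusted p of 0.998. DESeq2 gave 4 and limma-voom 5 at that unadjusted level, and neither gave any after adjustment.

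**Figure D2:**
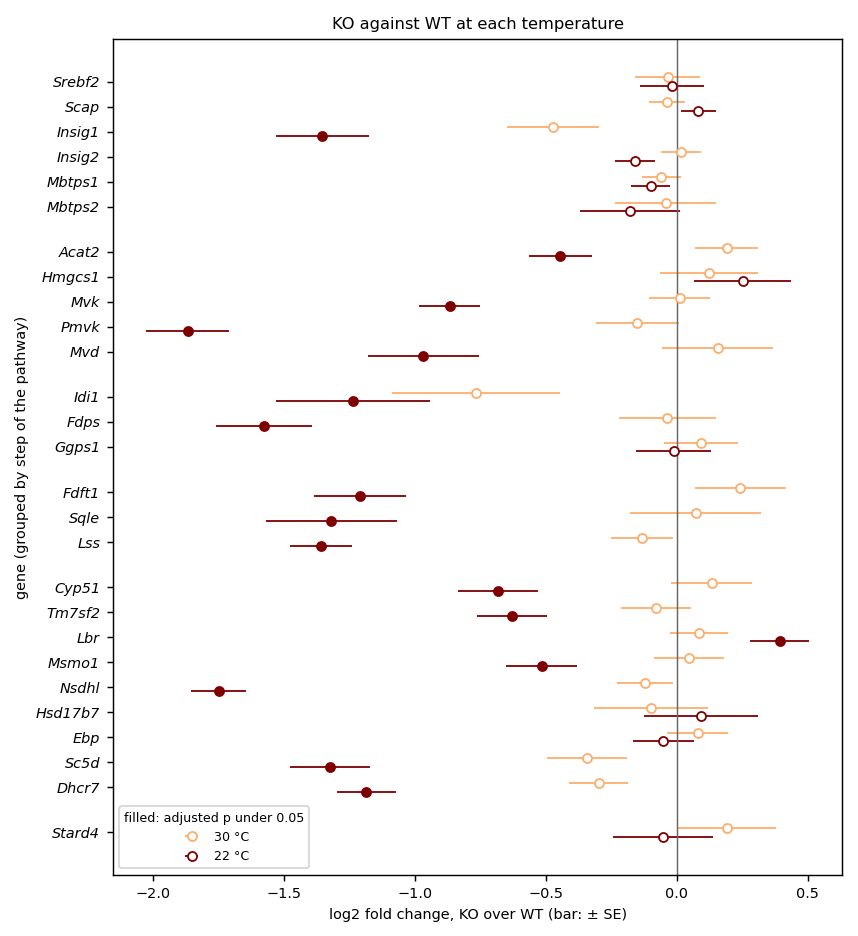
Log2 fold change of KO over WT (horizontal axis, bars ± SE) for each of the 27 genes (vertical axis) at 30 °C (light) and 22 °C (dark), with filled points for genes that passed the test. No gene is filled at 30 °C. At 22 °C 16 are filled below 0 and Lbr, at 0.39, is filled above it.

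The comparison of 22 °C with 30 °C in WT and that of KO with WT at 22 °C share the WT libraries at 22 °C, so their values are given side by side for each step below and no overlap between them is read as a result. The difference between the KO effects at 22 °C and at 30 °C was tested as an interaction. It was below 0 for 9 of the 27 genes and above 0 for none, with 2.39% of all genes below and 0.752% above. The median was -0.56, against 0.01 over all genes. Those 9 were Mvk, Pmvk, Fdps, Fdft1, Sqle, Lss, Nsdhl, Sc5d and Dhcr7, all of them enzymes. At an unadjusted p under 0.05 there were 15, and 2976 of the 14103 genes tested. DESeq2 called 13 below 0 and limma-voom 14. Over all genes these tools called 754 and 678 below 0, against 337 in the main fit.

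Among the 6 regulators, Insig1 had the largest changes and was the 1 gene that passed for KO against WT at 22 °C. Positions are those of the GENCODE annotation of GRCm38, from the start to the end of the gene. Insig1 (ENSMUSG00000045294, chr5:28071363-28078662, plus strand) was at 87.2, 112, 150.3 and 109.6 CPM in WT at 30 °C and at 202, 275, 252 and 389 CPM in WT at 22 °C. In KO it was at 90.3, 83.3, 77.7 and 80.2 CPM at 30 °C and at 119.5, 95.9, 115 and 107 CPM at 22 °C. The WT libraries at 22 °C stood above all other libraries. Insig1 rose in WT with a log2 fold change of 1.28 (SE 0.178, adjusted p = 5.51e-05), and at 22 °C KO was lower than WT, at -1.35 (SE 0.178, adjusted p = 0.000170). In KO its change with temperature was 0.40 (adjusted p = 0.104), although every KO library at 22 °C was above every KO library at 30 °C. That change passed with limma-voom (0.37, adjusted p = 0.0483) and in a fit on KO libraries alone (0.39, adjusted p = 0.00665). The interaction for Insig1 was -0.88 (adjusted p = 0.0662). It passed with DESeq2 (-0.90, adjusted p = 0.00852), with limma-voom (-0.87, adjusted p = 0.0304), and without library 3 of WT at 30 °C (-1.05, adjusted p = 0.0338) or library 1 of WT at 22 °C (-1.01, adjusted p = 0.0331).

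Srebf2 (ENSMUSG00000022463, chr15:82147181-82205379, plus strand), which encodes SREBP2 itself, passed in no comparison. It was at 53.5 to 60.0 CPM in WT and 48.5 to 63.0 CPM in KO at 30 °C, and at 45.4 to 64.7 CPM in WT and 48.3 to 63.8 CPM in KO at 22 °C. The ranges of all 4 groups overlapped. On the log2 scale it differed by -0.08 (SE 0.123, adjusted p = 0.625) from 30 °C to 22 °C in WT and -0.02 (SE 0.123, adjusted p = 0.935) for KO against WT at 22 °C. With the clock covariate described below the second value was -0.61 (adjusted p = 0.215). Scap, the escort of SREBP2, was at 42.0 to 54.2 CPM in all libraries and rose in KO at 22 °C by 0.23 (adjusted p = 0.0223). That call was lost in 9 of 18 alternative fits. Among them were those without library 1 or 3 of KO at 30 °C or library 2, 3 or 4 of KO at 22 °C, at adjusted p of 0.0621 to 0.0978. Insig2, the other INSIG, rose in WT by 0.35 (adjusted p = 0.00226), from 31.3 to 34.5 CPM at 30 °C to 38.1 to 47.2 CPM at 22 °C. For KO against WT at 22 °C Insig2 was at -0.16 (adjusted p = 0.149). Mbtps1, the site-1 protease, rose in WT by 0.24 (adjusted p = 0.0213), a call lost in 7 of 18 alternative fits. Among them were those without library 1 or 4 of WT at 30 °C or library 1 of WT at 22 °C, at adjusted p of 0.0518 to 0.0757. Mbtps2, the site-2 protease, passed in no comparison. All 5 regulators other than Insig1 missed the test for KO against WT at 22 °C.

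The early mevalonate steps were all higher in WT at 22 °C, and all but Hmgcs1 were lower in KO than in WT at 22 °C. Pmvk (ENSMUSG00000027952, chr3:89454541-89469013, plus strand), phosphomevalonate kinase, was at 26.3, 30.5, 34.5 and 31.2 CPM in WT at 30 °C and at 184, 230.2, 126 and 137 CPM in WT at 22 °C. In KO it was at 31.1, 24.4, 27.9 and 27.1 CPM at 30 °C and at 51.0, 45.7, 46.7 and 42.0 CPM at 22 °C. The groups at 22 °C were far apart, and KO at 22 °C still lay above every library at 30 °C. Pmvk rose 5.52-fold in WT (log2 fold change 2.46, SE 0.163, adjusted p = 7.75e-08) and 1.68-fold in KO (0.75, SE 0.158, adjusted p = 0.00303). KO was lower than WT at 22 °C (-1.87, SE 0.159, adjusted p = 3.10e-06), and the interaction was -1.72 (adjusted p = 0.000692).

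Hmgcs1 (ENSMUSG00000093930, chr13:119690379-119708260, plus strand), which makes HMG-CoA, did not follow Pmvk. It was at 172, 135, 187 and 197 CPM in WT and 162, 182, 211 and 197 CPM in KO at 30 °C. At 22 °C it was at 285, 264, 213 and 306 CPM in WT and 193, 312, 362 and 404 CPM in KO. KO at 22 °C spanned both the lowest and the highest of the 8 libraries at that temperature. Hmgcs1 rose in WT by 0.63 (SE 0.187, adjusted p = 0.0152) and in KO by 0.76 (SE 0.188, adjusted p = 0.00842). For KO against WT at 22 °C it was at 0.25 (SE 0.187, adjusted p = 0.360), and the interaction was 0.13 (adjusted p = 0.814). Without the 3 libraries with over 0.1% muscle counts, among them KO library 1 at 22 °C, the first value was 0.41 (adjusted p = 0.0572). With the clock covariate described below it was 0.056 (adjusted p = 0.981). The rise in WT was not called without library 2 of WT at 30 °C (adjusted p = 0.0579).

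Acat2 was at 79 to 118 CPM in WT and 106 to 120 CPM in KO at 30 °C, and at 146 to 221 CPM in WT and 129 to 133 CPM in KO at 22 °C. Acat2, the cytosolic acetoacetyl-CoA thiolase, rose in WT by 0.85 (SE 0.121) and was lower in KO at 22 °C, at -0.44 (SE 0.120, adjusted p = 0.0207). Without library 2 of WT at 22 °C the second value was -0.33 (adjusted p = 0.0557). The near copy Acat3 moved the other way in WT (-2.75), and how reads that fit both copies were counted is not given in the sources used here, so Acat2 is uncertain. Mvk, mevalonate kinase, was at 15.2 to 17.9 CPM in WT at 30 °C and at 24.6 to 33.5 CPM in WT at 22 °C. In KO Mvk stood at 14.9 to 20.9 CPM at 30 °C and 14.1 to 16 CPM at 22 °C, and it was lower than WT at 22 °C, at -0.87 (SE 0.116, adjusted p = 0.000201). Mvd, the decarboxylase after Pmvk, rose in WT by 0.79 (SE 0.209) and was lower in KO at 22 °C, at -0.97 (SE 0.211, adjusted p = 0.00671). Library 2 of WT at 22 °C, at 15.9 CPM, was the highest Mvd library, and the other WT libraries there were at 7.88 to 10.6 CPM against 4.28 to 7.28 CPM in KO. The interaction for Acat2 (-0.63, adjusted p = 0.0558) and Mvd (-1.12, adjusted p = 0.0536) missed the test. DESeq2 called both (adjusted p 0.00913 and 0.00963), as did limma-voom (0.0212 and 0.00877). In edgeR it passed for Acat2 without library 1 of WT at 30 °C or library 1 or 4 of WT at 22 °C (adjusted p 0.0298 to 0.0498), and for Mvd without WT library 1, 3 or 4 or library 1 of KO at 22 °C (adjusted p 0.0284 to 0.0466).

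**Figure D3:**
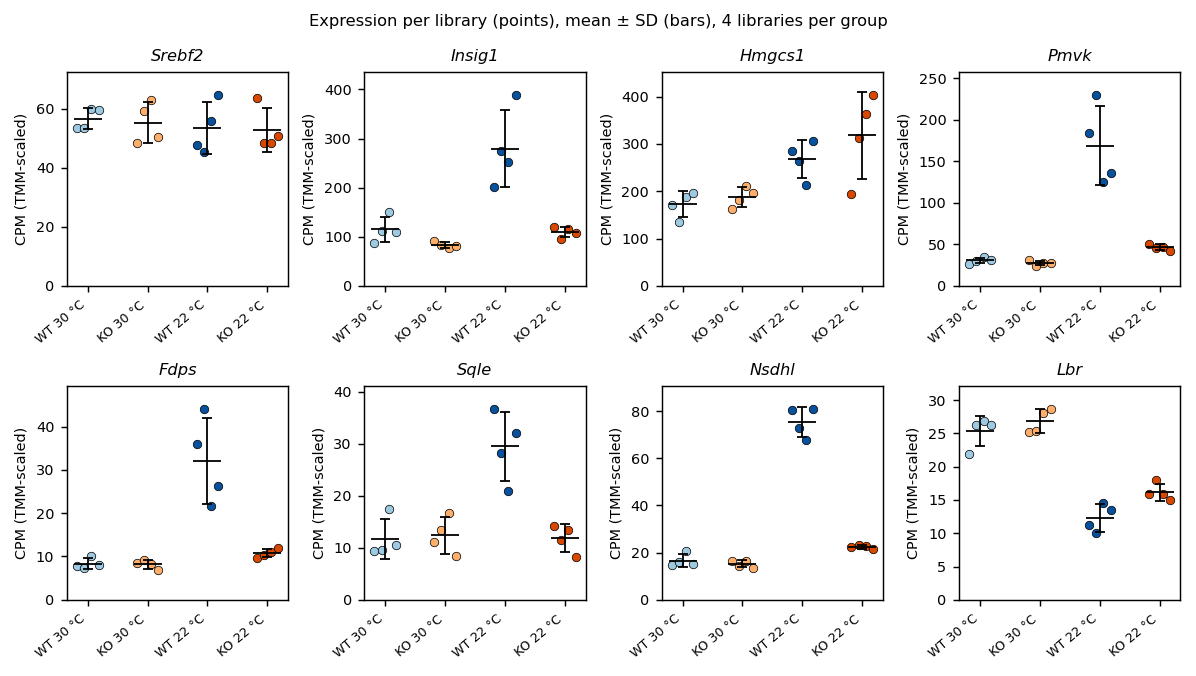
Level of 8 of the genes (vertical axes, CPM from 0) in each library (points) by group, with mean ± SD of 4 libraries (bars). For Insig1, Pmvk, Fdps, Sqle and Nsdhl every WT library at 22 °C lies above all others, Srebf2 overlaps in all groups, Hmgcs1 is high in both groups at 22 °C except KO library 1 (193 CPM), and Lbr is lower at 22 °C in both genotypes.

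Of the isoprenoid genes, Idi1 and Fdps changed and Ggps1 did not pass in any comparison. Fdps (ENSMUSG00000059743, chr3:89093588-89101959, minus strand), farnesyl diphosphate synthase, was at 7.90, 7.45, 10.1 and 8.04 CPM in WT at 30 °C and at 36.0, 44.1, 21.8 and 26.4 CPM in WT at 22 °C. In KO it was at 8.55, 9.08, 8.23 and 6.81 CPM at 30 °C and at 9.73, 10.3, 11.0 and 11.9 CPM at 22 °C. The lowest WT library at 22 °C was above the highest KO library. Fdps rose in WT by 1.94 (SE 0.184, adjusted p = 2.15e-06), was at 0.40 in KO (adjusted p = 0.123), and was lower in KO than in WT at 22 °C, at -1.58 (SE 0.182, adjusted p = 5.12e-05). Its change in KO passed with limma-voom (0.44, adjusted p = 0.0343), in a fit on KO libraries alone (0.39, adjusted p = 0.0441) and with the clock covariate (0.77, adjusted p = 0.0482). The interaction for Fdps was -1.54 (adjusted p = 0.00517), and -0.998 with the clock covariate (adjusted p = 0.451). Idi1, the isomerase before it, was scarce, at 0.538 to 2.02 CPM at 30 °C. Idi1 reached 2.73 to 5.56 CPM in WT and 1.29 to 1.96 CPM in KO at 22 °C. It rose in both genotypes, by 1.61 in WT (SE 0.297) and 1.14 in KO (SE 0.318), and was lower in KO at 22 °C, at -1.23 (SE 0.293, adjusted p = 0.0104). Without the 3 muscle-bearing libraries the rise of Idi1 in KO was 1.05 (adjusted p = 0.0633). The interaction for Idi1 was -0.47 (adjusted p = 0.558). Ggps1, whose product feeds protein prenylation and not sterols, stood at 10.6 to 16.7 CPM in all libraries, and it overlaps Arid4b on the opposite strand.

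All 3 genes from squalene to lanosterol rose in WT, were lower in KO at 22 °C and passed the interaction test. Sqle (ENSMUSG00000022351, chr15:59315077-59331192, plus strand), squalene epoxidase, was at 9.45, 9.51, 17.5 and 10.5 CPM in WT at 30 °C and at 36.7, 28.3, 20.9 and 32.1 CPM in WT at 22 °C. In KO it was at 11.1, 13.3, 16.8 and 8.39 CPM at 30 °C and at 14.2, 11.5, 13.5 and 8.25 CPM at 22 °C. The KO libraries of the 2 temperatures overlapped, and KO was lower than WT at 22 °C, at -1.32 (SE 0.249, adjusted p = 0.00274). The interaction for Sqle, -1.39 (adjusted p = 0.0454), was the least firm. It missed the test in 11 of 16 fits with 1 library left out, at adjusted p of 0.0579 to 0.0981, among them those without library 1, 2 or 4 of WT at 30 °C, library 1, 2 or 3 of KO at 30 °C, library 1 or 2 of WT at 22 °C, or library 2, 3 or 4 of KO at 22 °C. Lss (ENSMUSG00000033105, chr10:76531588-76557138, plus strand), lanosterol synthase, was at 22.5 to 32.2 CPM in WT and 22.7 to 24.4 CPM in KO at 30 °C. At 22 °C Lss was at 76.2, 72.9, 66.1 and 91.4 CPM in WT and at 34.0, 27.8, 28.2 and 29.7 CPM in KO. Every WT library was above every KO library there. Lss rose 2.97-fold in WT (1.57, SE 0.118, adjusted p = 2.71e-07), was lower in KO at 22 °C, at -1.36 (SE 0.117, adjusted p = 3.26e-06) and had an interaction of -1.23 (adjusted p = 0.000954). Its rise in KO, 0.34 (adjusted p = 0.0411), was lost whichever KO library was left out, at adjusted p of 0.0524 to 0.10.

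Fdft1 (ENSMUSG00000021273, chr14:63145150-63179578, minus strand), squalene synthase, fell in KO at 22 °C. It was at 51.3, 58.9, 46.3 and 49.9 CPM in WT and 72.6, 60.6, 62.9 and 48.4 CPM in KO at 30 °C. At 22 °C it was at 70.9, 86.1, 83.4 and 68.5 CPM in WT and 43.8, 35.6, 33.4 and 21.0 CPM in KO. The KO libraries at 22 °C lay below all others. Fdft1 rose in WT by 0.58 (SE 0.174, adjusted p = 0.0157) and fell in KO by 0.87 on the log2 scale (SE 0.176, adjusted p = 0.00227), with an interaction of -1.45 (adjusted p = 0.00570). Fdft1 overlaps Ctsb on the opposite strand, which held 23389 counts per library on average against 903 for Fdft1. Ctsb rose in WT by 0.49 (adjusted p = 0.000800), was lower in KO at 22 °C, at -0.67 (adjusted p = 0.000304), was at -0.22 in KO between temperatures (adjusted p = 0.0860) and had an interaction of -0.71 (adjusted p = 0.0105). Whether the counting used strand is not given in the sources used here, so Fdft1 is uncertain and the part of Ctsb reads in it was not tested.

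The late sterol steps split. Of 9 genes 7 rose and 1 fell in WT at 22 °C, and 6 were lower and 1 higher in KO than in WT at 22 °C. Nsdhl (ENSMUSG00000031349, chrX:72918557-72958514, plus strand), which removes sterol methyl carbons, was at 14.7, 15.9, 20.6 and 15.0 CPM in WT at 30 °C and at 80.3, 72.7, 67.6 and 81.0 CPM in WT at 22 °C. In KO it was at 16.5, 14.3, 16.5 and 13.6 CPM at 30 °C and at 22.5, 23.1, 22.8 and 21.4 CPM at 22 °C. Both groups at 22 °C were above their own genotype at 30 °C, and the lowest WT library at 22 °C was well above the highest KO library. Nsdhl rose 4.55-fold in WT (2.19, SE 0.108, adjusted p = 7.22e-09) and 1.47-fold in KO (0.56, SE 0.107, adjusted p = 0.00155). KO was lower than WT at 22 °C, at -1.75 (SE 0.106, adjusted p = 2.32e-07), and the interaction was -1.63 (SE 0.150, adjusted p = 5.74e-05).

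Sc5d, a sterol desaturase, was at 27.3 to 37.8 CPM in WT and 24.5 to 26.2 CPM in KO at 30 °C, and at 55.6 to 94.4 CPM in WT and 24.2 to 34.0 CPM in KO at 22 °C. At 30 °C every KO library of Sc5d lay below every WT library, but it did not pass the test (adjusted p = 0.998). How many of all genes show that pattern at 30 °C was not counted. At 22 °C Sc5d was lower in KO, at -1.32 (SE 0.152, adjusted p = 5.12e-05). Its interaction, -0.98 (adjusted p = 0.0250), was lost without library 1 or 3 of KO at 30 °C or library 3 of KO at 22 °C, at adjusted p of 0.0507 to 0.0561. Dhcr7, which carries out a last step to cholesterol, was at 34.1 to 39.9 CPM in WT and 13.9 to 18.3 CPM in KO at 22 °C, against 18.1 to 24 and 14.4 to 19.2 CPM at 30 °C. Dhcr7 was lower in KO at 22 °C, at -1.18 (SE 0.114, adjusted p = 8.78e-06), with an interaction of -0.89 (adjusted p = 0.00852). Cyp51 was at 20.7 to 28.1 CPM in WT and 24.2 to 30.2 CPM in KO at 30 °C, and at 40.3 to 54.7 CPM in WT and 24.1 to 39.1 CPM in KO at 22 °C. Cyp51, the lanosterol demethylase, rose in WT by 0.96 and was lower in KO at 22 °C, at -0.68 (adjusted p = 0.00775). Its interaction was -0.81 (adjusted p = 0.0542), which passed with DESeq2 (adjusted p = 0.00713), with limma-voom (adjusted p = 0.0191), with upper-quartile factors (adjusted p = 0.0420) or relative-log-expression factors (adjusted p = 0.0481), and without WT library 3 (adjusted p = 0.0434) or KO library 1 (adjusted p = 0.0121) at 22 °C. Cyp51 overlaps Akap9 on the opposite strand. Msmo1 was at 14.7 to 19.5 CPM in WT and 16.5 to 18.9 CPM in KO at 30 °C, and at 20.2 to 28.1 CPM in WT and 14.1 to 20.2 CPM in KO at 22 °C. Msmo1, the sterol methyl oxidase, rose in WT by 0.42 and was lower in KO at 22 °C, at -0.52 (adjusted p = 0.0176). The second call was lost without library 3 of WT at 22 °C (adjusted p = 0.0518) and the first without library 1 or 2 of WT at 30 °C or library 3 of WT at 22 °C (adjusted p 0.0571 to 0.0741). Over 18 alternative fits the first call was lost in 4 and the second in 3. Ebp was at 24.9 to 27.8 CPM in WT and 27.4 to 29.1 CPM in KO at 30 °C, and at 29.4 to 46 CPM in WT and 29.5 to 36.3 CPM in KO at 22 °C. The groups at 22 °C overlapped. Ebp, the sterol isomerase, rose in WT by 0.38 (adjusted p = 0.0168), a call lost in 5 of 18 alternative fits. They include the fit without library 2 of WT at 30 °C (adjusted p = 0.0626) and that with the clock covariate (adjusted p = 0.0847). Hsd17b7, a sterol ketone reductase, stood at 4.81 to 10.3 CPM in all libraries and passed in no comparison.

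Tm7sf2 and Lbr encode sterol reductases of the same step. They moved in opposite directions in WT between temperatures and for KO against WT at 22 °C. In KO between temperatures Tm7sf2 was at 0.08 (adjusted p = 0.684), while Lbr fell. Tm7sf2 was at 9.03 to 11.1 CPM in WT at 30 °C and 11.2 to 19.0 CPM in WT at 22 °C, rose by 0.63 (SE 0.134, adjusted p = 0.00165) and was lower in KO at 22 °C, at -0.63 (SE 0.134, adjusted p = 0.00571). It overlaps Vps51 on the same strand, which held 457 counts per library on average against 186 for Tm7sf2. The part of Vps51 reads in Tm7sf2 was not tested. Lbr (ENSMUSG00000004880, chr1:181815335-181843046, minus strand), whose product also anchors chromatin at the nuclear envelope, was at 21.9, 26.3, 26.8 and 26.2 CPM in WT and 25.2, 25.4, 28.1 and 28.7 CPM in KO at 30 °C. At 22 °C it was at 11.2, 10, 14.5 and 13.5 CPM in WT and at 15.9, 18, 15.8 and 15.0 CPM in KO. Lbr was low in every library at 22 °C, and lower in WT than in KO. It fell by 1.04 in WT (SE 0.112, adjusted p = 6.31e-06) and by 0.73 in KO (SE 0.111, adjusted p = 0.000297) on the log2 scale. At 22 °C KO was higher than WT by 0.39 (SE 0.112, adjusted p = 0.0262), a call lost without WT library 1 or 2 or library 2 of KO at 22 °C, at adjusted p of 0.0621 to 0.0817. The interaction for Lbr was 0.31 (adjusted p = 0.272).

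Other cell types moved with temperature beside Lbr. The summed share of counts of the 6 macrophage markers was 0.0164% to 0.0254% in the 8 libraries at 30 °C and 0.00627% to 0.0173% in the 8 at 22 °C. In each genotype 5 of the 6 fell, where 17.8% of all genes fell in WT and 13% in KO. The share of the 5 endothelial markers was 0.106% to 0.120% at 30 °C and 0.0552% to 0.0939% at 22 °C. At 22 °C it was 0.0621% ± 0.00885 in WT and 0.0861% ± 0.0109 in KO (SD, n = 4). Of the 5 markers 3 were higher in KO there, with a median of 0.33, where 7.52% of all genes were higher. In whole tissue fewer cells of a type and less RNA per cell cannot be told apart, and the part of these cells in the values of Lbr was not tested. Stard4, a sterol carrier protein, fell in KO at 22 °C by 0.74 (SE 0.190, adjusted p = 0.0105), from 11.3 to 14.4 CPM to 5.79 to 8.75 CPM. In WT it was at 11.5 to 11.7 CPM at 30 °C and 5.39 to 11.8 CPM at 22 °C, with a log2 fold change of -0.49 (adjusted p = 0.0514). Without library 3 of WT at 22 °C, the highest, that value was -0.71 (adjusted p = 0.00432). For KO against WT at 22 °C Stard4 was at -0.05 (adjusted p = 0.868).

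Set side by side, 22 of the 27 genes had a larger log2 fold change with temperature in WT than in KO. How many of all genes did so was not counted, and the median interaction over all genes was 0.01. Of the 20 genes that rose in WT, 5 rose, 1 fell (Fdft1) and 14 did not pass in KO. The 9 genes that passed the interaction test are among these 20. The interaction uses the same WT libraries that picked the 20, so this overlap is not read as a result. Hmgcs1, Insig2, Mbtps1 and Ebp rose in WT without passing for KO against WT at 22 °C. Individual libraries within a group did not all keep the same rank. At 22 °C WT library 3 held the lowest value of the group for 12 of the 27 genes and WT library 4 the highest for 10, and KO library 1 held the highest for 14 and the lowest for 7.

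A shift of clock genes ran with the KO at 22 °C. The difference in log2 CPM between Dbp, a clock output gene, and Arntl, a core clock gene, was -3.43 to -2.20 in KO at 22 °C. It was -0.80 to 1.78 in WT at 22 °C, -1.36 to 0.26 in KO at 30 °C and -0.56 to 0.40 in WT at 30 °C, so the KO libraries at 22 °C stood apart from the other 12. For KO against WT at 22 °C Dbp was at -2.57 (adjusted p = 0.000267) and Arntl at 0.90 (adjusted p = 0.00171). With this difference as a covariate the median of the 27 genes for that comparison was -0.61, but 5 genes were called lower, and over all genes the calls went from 1421 to 87 lower and from 1061 to 22 higher. The 5 were Insig1 (-1.78, adjusted p = 0.0219), Lss (-1.79, adjusted p = 0.000802), Nsdhl (-1.85, adjusted p = 0.000802), Sc5d (-2.04, adjusted p = 0.000772) and Dhcr7 (-1.51, adjusted p = 0.00546). The other 11 of the 16 genes lost their call, some with a smaller and some with a larger fold change. Smaller were Pmvk at -1.35 (adjusted p = 0.0536), Fdps at -0.95 (adjusted p = 0.300), Fdft1 at -0.91, Mvd at -0.73, Mvk at -0.61 and Tm7sf2 at -0.05 (adjusted p = 0.973). Larger were Sqle at -1.78 (adjusted p = 0.167), Idi1 at -1.64 (adjusted p = 0.373), Cyp51 at -1.17 (adjusted p = 0.0991), Msmo1 at -0.63 and Acat2 at -0.49. Lbr, the 1 gene that was higher, was at 0.13 (adjusted p = 0.894). The interaction was then called for 4 genes, Lss, Nsdhl, Sc5d and Dhcr7. Over all genes it was then called below 0 for 26 and above 0 for 3. Because no KO library at 22 °C shares its clock value with a WT library, clock state and genotype at 22 °C cannot be fully told apart here. Without the 3 muscle-bearing libraries 16 genes were lower in KO at 22 °C, with a median of -0.68, and 8 passed the interaction. Of the 14104 genes tested in that fit 1030 were lower, against 1421 in the main fit. The interaction was below 0 for 136 of them, against 337.

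**Figure D4:**
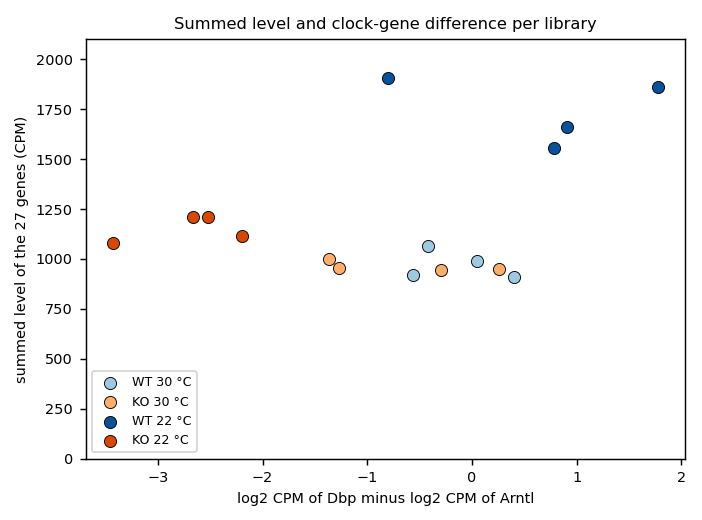
Summed level of the 27 genes (vertical axis, CPM from 0) against the Dbp to Arntl difference in log2 CPM (horizontal axis) in each of the 16 libraries, coloured by group. The 4 WT libraries at 22 °C, at 1558 to 1907 CPM, lie above the rest across clock values of -0.80 to 1.78, and the 4 KO libraries at 22 °C lie at clock values under -2.

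Beyond these 27 genes, accessory genes of the pathway were counted in 2 lists. Of 10 genes of the non-sterol isoprenoid branch, 3 were lower in KO at 22 °C, where 10.1% of all genes were lower. From 30 °C to 22 °C, 5 rose and 1 fell in WT (20.5% and 17.8% of all genes), and 3 rose and 2 fell in KO (13.8% and 13%). The 3 lower in KO at 22 °C were Pdss2, a polyprenyl synthase of ubiquinone synthesis (-0.39, adjusted p = 0.00635), Dhdds, of dolichol synthesis (-0.32, adjusted p = 0.0164), and Fntb, a farnesyltransferase subunit (-0.36, adjusted p = 0.0262). Pdss2 alone of the 10 passed the interaction (-0.52, adjusted p = 0.0338). Of 18 genes of sterol export, storage and LXR control, 3 were higher and 2 lower in KO at 22 °C (median 0.05), against 7.52% and 10.1% of all genes. The share that was lower is close to that of all genes. Scarb1, a lipoprotein receptor, was higher by 0.77 (adjusted p = 0.00135), while Npc2, a lysosomal sterol carrier, and Osbpl2, a sterol-binding protein, were at -0.85 (adjusted p = 0.000311) and -0.42 (adjusted p = 0.000988).

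Genes of fatty acid synthesis were set beside the sterol genes because SREBP factors act on both pathways. All 11 were lower in KO at 22 °C with a median log2 fold change of -1.94, against -0.92 for the 20 sterol enzymes. All 11 rose in WT at 22 °C, with a median of 3.03 against 0.80 for the 20 enzymes. In KO 8 of the 11 rose with a median of 1.14, against 5 of the 20 enzymes with a median of 0.12. The interaction was below 0 for 8 of the 11 fatty acid genes, for 9 of the 20 enzymes and for 2.39% of all genes tested. Of all genes 10.1% were lower in KO at 22 °C, and with temperature 20.5% rose in WT and 13.8% in KO. The difference between these lists was not tested.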

How the data were processed

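Total RNA of 16 mouse brown fat samples was sequenced by the study, 4 libraries per group, grouped by their titles. The authors deposited 1 table of whole-number read counts, with Ensembl genes as rows. The tools named in the submitters' processing notes are STAR (2.4.2a), FastQC (0.10.1) and edgeR (3.14.0), and the builds are mm10 and GRCm38. For the counter, its strand mode and the annotation, the sources used here give nothing. Symbols matched 37607 of 38924 identifiers, and the 1317 without one held at most 0.131% of counts.

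Tests were run with edgeR 4.0.16 in R 4.3.3 (quasi-likelihood, TMM factors, 1 fit of all 16 libraries with a term per group). The 14103 genes passing filterByExpr (minimum count 10) were tested, out of 24818 with counts. Benjamini-Hochberg adjustment was over all genes tested, with a threshold of 0.05. The typical biological coefficient of variation was 22.5%, so counting error is minor except for scarce genes such as Idi1. No 2 libraries of a group agreed within sampling noise (chi-square per degree of freedom at least 7.68). The scripts were tested on simulated data. Levels are TMM-scaled CPM, and fold changes are edgeR estimates.

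The 27 genes, the lists and the alternatives were chosen with earlier results of these data known. All 27 genes are accounted for in each comparison. Of the other lists the genes named are at most 3, with the smallest p for KO against WT at 22 °C. Alternatives were DESeq2 1.42.0, limma-voom with quality weights (limma 3.58.1), upper-quartile or relative-log-expression factors, a filter stricter than the main one (mean count 20 and a CPM of 1 in 4 libraries) or none, only the groups compared, a replicate block, a clock covariate, no libraries with over 0.1% muscle counts, and each library left out. A further list, of sterol enzyme degradation and SREBP cofactors, is not reported here. Promoter letters are RefSeq GRCm38.p6. Coordinates are 1-based.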

Additional observations from a re-analysis of the deposited data

Results flagged for a closer look

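For 9 enzymes the KO effect at 22 °C differed from that at 30 °C by the test of the difference itself. The log2 differences were -1.72 for Pmvk, -1.63 for Nsdhl, -1.54 for Fdps, -1.45 for Fdft1, -1.39 for Sqle, -1.23 for Lss, -0.98 for Sc5d, -0.89 for Dhcr7 and -0.88 for Mvk.

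In 6 of 108 groups of 4 libraries (27 genes in 4 groups) 1 library stood far from the other 3, by a gap of over 0.829 of the group's range. About 1 in 20 groups would do so by chance. KO library 1 at 22 °C, was the highest for Srebf2 (63.8 CPM, next 50.8) and the lowest for Mbtps1 (77.4 CPM, next 91.6) and Stard4 (5.79 CPM, next 8.49). In that library muscle markers took 0.499% of counts, neutrophil markers 0.00318% (at most 7.94e-05% in the other KO libraries at 22 °C) and brown adipocyte markers 0.898% (1.31% to 1.40% in the others). Their part in these values was not tested. WT library 3 at 30 °C was the highest for Sqle (17.5 CPM, next 10.5). WT library 1 at 30 °C was the lowest for Lbr (21.9 CPM, next 26.2). KO library 4 at 30 °C was the lowest for Mvd (5.72 CPM, next 7.13).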

How the results depend on the processing

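No called gene of the 27 changed direction under any of the 26 other settings. The number of genes lower in KO at 22 °C went from 16 to 5 with the clock covariate and to 11 with only the groups compared. Over all genes it went from 1421 to 87 and to 441. The 1 gene higher there became 0 with limma-voom, with the clock covariate, with only the groups compared and without muscle-bearing libraries, and was 0 to 1 with 1 library left out. The 1 gene that fell in WT at 22 °C became 2 with upper-quartile factors, the stricter filter, DESeq2 and the replicate block, and was 1 to 2 with 1 library left out. The 6 genes that rose in KO at 22 °C became 11 with limma-voom, 10 with only the groups compared and 3 without muscle-bearing libraries. Over all genes the 1943 that rose became 3079, 2220 and 1458 in those fits. The 9 interactions below 0 became 14 with limma-voom and 4 with the clock covariate, while over all genes 337 became 678 and 26. The median at 22 °C against 30 °C in KO was 0.036 with upper-quartile factors, 0.035 with limma-voom, -0.030 with the clock covariate and 0.013 without muscle-bearing libraries. The interaction median was -0.67 without those libraries, and the median for WT with temperature ranged from 0.53 to 0.75 with 1 library left out. Among the genes recomputed under every setting, which are those called and a few named ones, values that had not passed and crossed 0 included Srebf2 (0.047 in WT with the clock covariate, and for KO at 22 °C -0.61 with the clock covariate and -0.13 to 0.087 with 1 library left out), Hmgcs1 (interaction -0.034 with the clock covariate, and -0.027 to 0.30 with 1 library left out) and Stard4 (KO at 22 °C 0.057 without muscle-bearing libraries, and -0.21 to 0.17 with 1 library left out). The median for KO at 30 °C, -0.035, crossed 0 too, reaching 0.014 with 1 library left out. The cause was not tested.

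Upper-quartile factors moved the median of all genes in WT between temperatures from -0.03 to -0.13. With the replicate block 16 genes were lower in KO at 22 °C and 7 passed the interaction. Over all 14103 genes 1179 were lower with that block, against 1421 in the main fit. The interaction was below 0 for 145, against 337. In no comparison were all 4 correlations between deviations of same-numbered libraries over 0.1 (they ranged from -0.50 to 0.45). In WT between temperatures they were 0.043 to 0.22. Libraries with different numbers were not compared, so these values do not settle whether the numbers pair the libraries. Insig1, Lss, Nsdhl, Sc5d and Dhcr7 were lower in KO at 22 °C in all 18 alternatives, and Lss, Nsdhl and Dhcr7 passed the interaction in all 25. The call for Lbr at 22 °C was lost in 7 of 18, that for Lss in KO in 13 of 18 and the interaction for Sqle in 14 of 25. Low depth limits Idi1, the scarcest gene.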
